A study of Mus musculus with 207 samples.

Results

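The 37 genes of the mouse mitochondrial genome were followed one by one in single islet beta cells, the insulin-making cells of the pancreas. Every row of the expression table whose NCBI Gene number lies on the mitochondrial chromosome was taken, with no use of measured values, which gave 37 of the 44448 rows: 13 protein genes, 2 rRNA genes and 22 tRNA genes. On the reference sequence 28 of them lie on the plus strand and 9 on the minus strand, namely mt-Nd6 and the tRNA genes mt-Tq, mt-Ta, mt-Tn, mt-Tc, mt-Ty, mt-Ts1, mt-Te and mt-Tp. The cells came from pancreatic islets of male mice aged 3 months (Young, 138 cells, numbered 1 to 138 in the sample titles) or 26 months (Old, 69 cells, numbered 139 to 207). All were captured singly on a Fluidigm C1 chip and amplified with SMARTer chemistry, which primes cDNA on poly(A), and no strain, genotype, treatment or animal is named in the labels. Each age is therefore 1 sample, cells are not replicates, no test was made, and every SD is the spread between cells. Values are TPM, a unit that divides reads by transcript length and scales each cell to 1000000. Genes are set side by side in this unit, but capture and read assignment may differ between genes. A TPM ratio between genes therefore need not be a ratio of RNA molecules, and the read depth behind the values is unknown.

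Mitochondrial DNA is transcribed from both strands into long RNAs that span many genes. Most protein and rRNA genes are flanked by tRNAs, and cutting at the tRNAs releases the RNAs between them. Most, but not all, of the mRNAs then receive poly(A) tails. The proteins are subunits of respiratory complexes I, III and IV and of ATP synthase, and in beta cells the ATP these make couples glucose breakdown to insulin release.

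The cell label was checked on marker genes. The summed TPM of 8 beta-cell markers had a median of 622816 in young and 593490 in old cells, against 910 and 742 for 5 alpha-cell markers, 30.2 and 69.5 for 3 delta-cell markers and 0 and 0 for 7 acinar markers. The 4 duct markers had medians of 47.2 and 93.4, with up to 1586 TPM in a young and 6584 TPM in an old cell, and the 4 macrophage markers had a median of 0 at both ages but reached 13719 TPM in a young and 3377 TPM in an old cell. In single cells the alpha-cell markers reached 4314.5 TPM among the young and 6987 among the old, and the delta-cell markers 770 and 1586 TPM. Of the alpha-cell markers, Ttr alone had means of 910 and 962 TPM, and Gcg 86.6 and 30.6 TPM. The 2 markers of pancreatic polypeptide cells had medians of 22.2 and 47.8, with up to 890 and 2123 TPM. The part of any of these markers in the results was not tested. The beta-cell factor Mafa was nearly undetected, with a mean of 0.0239 TPM among the young and 0.395 among the old. Within an age, the cells were also described by stretches of the cell number, 1 to 54 and 55 to 138 in the young and 139 to 158, 159 to 190 and 191 to 207 in the old. These boundaries had been placed on earlier results of the same table, partly on the summed TPM of the mitochondrial protein, rRNA and tRNA genes, so differences between stretches are given as description. Each stretch holds 1 age, so stretch and age cannot be told apart. Median detected genes per cell (TPM of 1 or above) were 3790.5 and 4633 in the young stretches and 4570.5, 3633.5 and 3614 in the old ones, and mean TPM of the nuclear RNA Malat1 was 313 and 3231 in the young and 2385, 216 and 2020 in the old stretches. The summed TPM of Ins1 and Ins2 had means between 505900 and 549504 in the 5 stretches. Malat1 and detected genes thus moved with several results below, and their part in them was not tested.

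The sequences that matter most for the values are the small features and the places where genes overlap. The first set below shows 5 tRNA genes, 4 of the minus strand whose levels differed widely between stretches and mt-Tl1 of the plus strand for contrast. They are written 5′ to 3′ in the sense of the tRNA, with T for U and the anticodon in capitals, from the GENCODE M21 transcripts of GRCm38.
mt-Ts1: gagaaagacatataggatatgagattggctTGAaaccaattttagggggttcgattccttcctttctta
mt-Te: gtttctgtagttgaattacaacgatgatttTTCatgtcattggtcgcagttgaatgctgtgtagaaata
mt-Tq: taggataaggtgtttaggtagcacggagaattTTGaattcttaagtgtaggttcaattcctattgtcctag
mt-Tp: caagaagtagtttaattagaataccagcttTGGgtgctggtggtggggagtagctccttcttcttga
mt-Tl1: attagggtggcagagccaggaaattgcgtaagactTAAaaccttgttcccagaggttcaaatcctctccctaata
The mt-Ts1 gene (tRNA for serine, chrMT:6870-6938, minus strand) ends within the last bases of mt-Co1, which lies on the other strand, mt-Te (glutamate, chrMT:14071-14139, minus) lies between mt-Nd6 and mt-Cytb, mt-Tq (glutamine, chrMT:3772-3842, minus) overlaps mt-Ti, mt-Tp (proline, chrMT:15356-15422, minus) closes the gene order, and mt-Tl1 (leucine, chrMT:2676-2750, plus) sits between mt-Rnr2 and mt-Nd1. The 22 tRNA genes have 59 to 75 bases each, so few reads make a high TPM, and a mature tRNA cannot be told apart from a longer RNA that runs through it.

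Protein genes overlap at several joints, shown here on GRCm38 with the shared bases in capitals, because reads from these bases can belong to either gene.
end of mt-Co1: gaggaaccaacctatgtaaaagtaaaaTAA
mt-Atp8 and mt-Atp6: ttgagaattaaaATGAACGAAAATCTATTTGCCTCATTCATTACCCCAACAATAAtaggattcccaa
mt-Nd4l and mt-Nd4: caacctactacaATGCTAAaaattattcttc
end of mt-Nd5: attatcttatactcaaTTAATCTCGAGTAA
end of mt-Nd6: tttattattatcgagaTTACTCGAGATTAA
The stop codon of mt-Co1 (chrMT:6843-6872, plus) shares 3 bases with mt-Ts1 on the minus strand. mt-Atp8 and mt-Atp6 share 43 bases (window chrMT:7915-7981, plus) and mt-Nd4l and mt-Nd4 share 7 (window chrMT:10155-10185, plus), each pair on the same strand. The 3′ ends of mt-Nd5 (chrMT:13536-13565, plus) and mt-Nd6 (chrMT:13552-13581, minus) share 14 bases on opposite strands. Strand handling is not given in the sources used here, so reads of genes that overlap on opposite strands cannot be told apart. At any other gene, too, reads may come from RNA of either strand. Strand below therefore means the annotated strand of the gene and not that of the reads.

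All 13 protein genes and both rRNA genes were detected in each of the 207 cells, and 20 of the 37 genes were detected in over 50% of cells. The other 5 of those 20 were tRNA genes: mt-Tl1 in 186 cells, mt-Te in 140, mt-Ts1 in 133, mt-Tq in 120 and mt-Tp in 107. Of the remaining 17 tRNA genes, mt-Ta was the most often seen, in 91 cells, and mt-Tw the least, in 7. No member was at 0 in every cell.

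**Figure D1:**
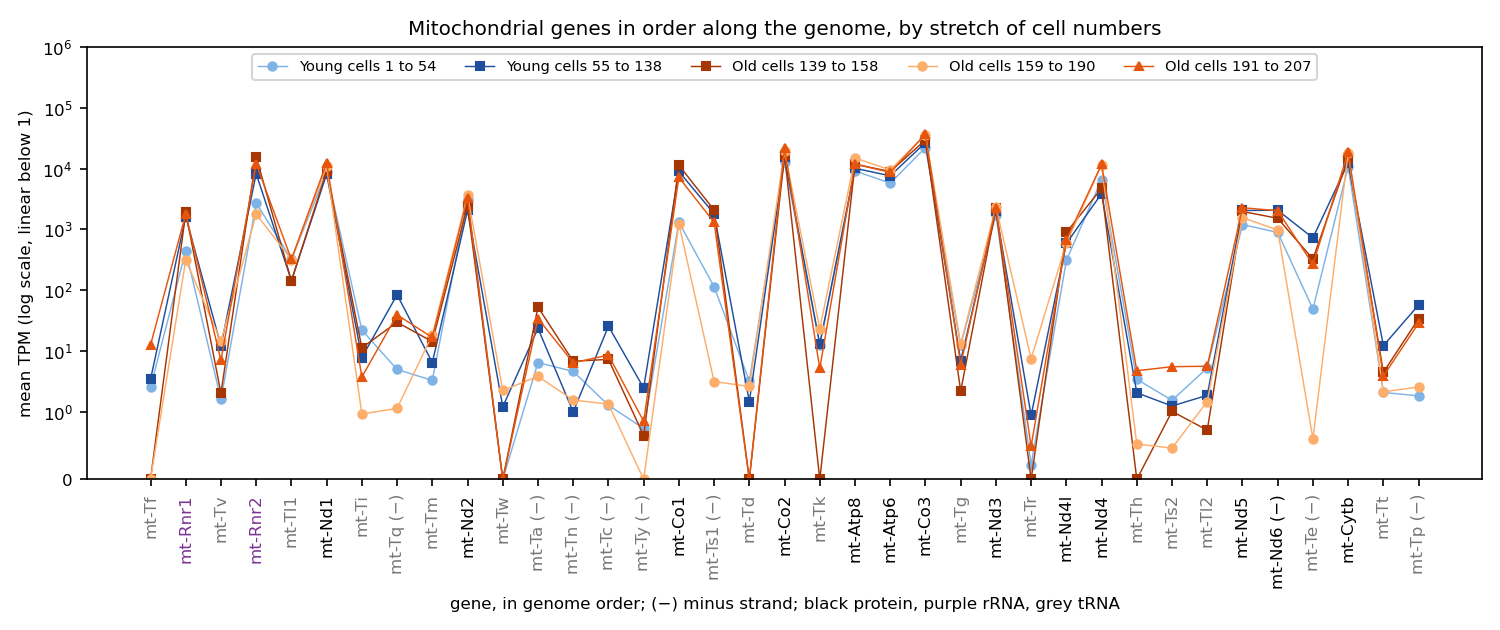
Mean TPM (log scale, linear below 1) of the 37 genes in genome order for the 5 stretches of cell numbers, with minus-strand genes marked. The protein genes other than mt-Co1 lie closer together, while mt-Co1, both rRNA genes and the minus-strand tRNAs such as mt-Ts1 and mt-Te separate cells 1 to 54 and 159 to 190 from the other stretches.

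Among the subunits of complex IV (cytochrome c oxidase), mt-Co3 had the highest mean TPM of the mitochondrial protein genes. mt-Co3 had 24955 ± 13748 TPM in young (SD, n = 138 cells) and 34400 ± 19820 in old cells (n = 69), and mt-Co2, which encodes the subunit that takes electrons from cytochrome c, had 14380 ± 7888 and 19218 ± 13203 TPM. mt-Co1, which encodes the catalytic core subunit of the same enzyme, had 5974 ± 5074 and 5643 ± 6355 TPM. The old over young difference, log2 of the ratio of mean TPM with 1 added to each mean, was 0.46 for mt-Co3, 0.42 for mt-Co2 and -0.082 for mt-Co1.

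The near equality of mt-Co1 between the ages averaged over stretches that differed by far more. mt-Co1 had a mean of 1313 TPM in cells 1 to 54 (SD 1424, range 36.8 to 7303) and 8970 TPM in cells 55 to 138 (SD 4240, range 418 to 20197), both young. In the old cells it had 11379 TPM in cells 139 to 158 (SD 5560, range 2420 to 23412), 1242 TPM in cells 159 to 190 (SD 1067, range 249 to 4843) and 7178 TPM in cells 191 to 207 (SD 7096, range 431 to 23267). High and low levels thus occurred at both ages, and the ranges in TPM overlapped between stretches.

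The contrast was sharper within the mitochondrial mRNA pool, that is, each protein gene's percent of the summed TPM of the 13 protein genes in the same cell. mt-Co1 held a mean of 1.51% of the pool in cells 1 to 54 (range 0.0344 to 4.57%), 9.17% in cells 55 to 138 (2.40 to 14.1%), 10.1% in cells 139 to 158 (4.07 to 14.1%), 0.979% in cells 159 to 190 (0.311 to 2.44%) and 4.95% in cells 191 to 207 (0.570 to 14.4%). Cells 139 to 158 and 159 to 190 did not overlap. Among the young, 11 of the 54 cells of the low stretch reached the lowest value of the high stretch, and 8 of the 84 cells of the high stretch lay at or below the highest value of the low one. A share above 5% was seen in 0 of 54, 75 of 84, 19 of 20, 0 of 32 and 8 of 17 cells of the 5 stretches in order.

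The other complex IV subunits had similar mean shares in all stretches, although single cells varied, in cells 1 to 54 from 8.92 to 43.4% for mt-Co2 and from 9.74 to 38.3% for mt-Co3. mt-Co2 held between 14.3% (cells 139 to 158) and 15.7% (cells 1 to 54) of the pool on average, and mt-Co3 between 25.4% (cells 139 to 158) and 28.0% (cells 159 to 190). In the median cell mt-Co3 therefore stood 18.9 times above mt-Co1 in cells 1 to 54 and 2.76 times in cells 55 to 138, and 2.54, 31.3 and 5.66 times in the 3 old stretches. Averaged by age, mt-Co1 held 6.17 ± 4.46% of the pool in young and 4.59 ± 4.58% in old cells, a difference that turned over when cells 55 to 138 (3.08 points higher in old) or cells 159 to 190 (1.54 points higher) were left out.

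**Figure D2:**
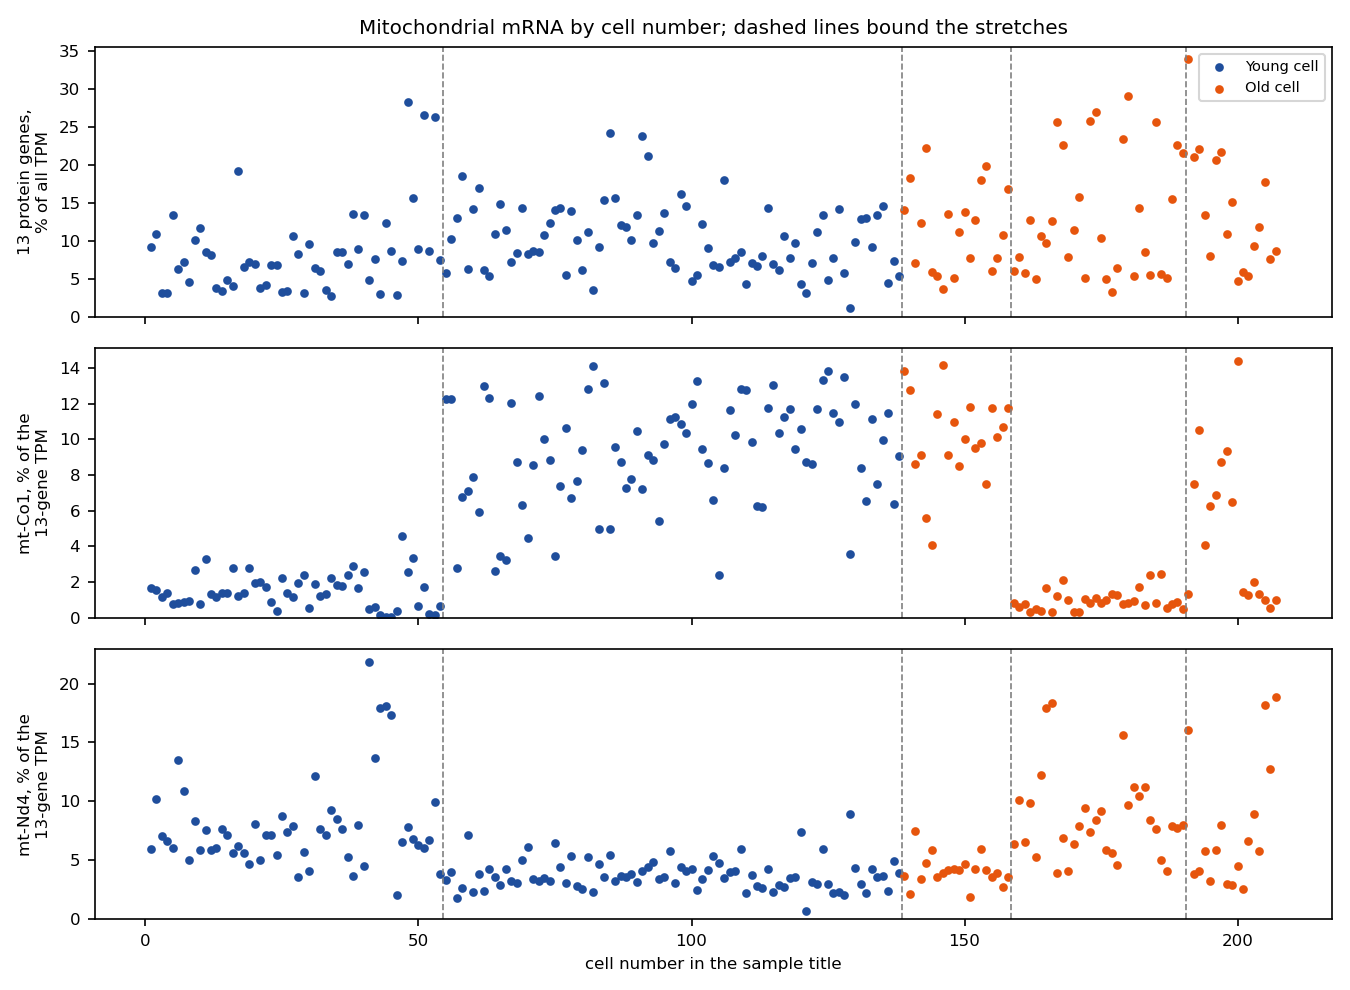
Each point is 1 cell, plotted by cell number, with the 13 protein genes as percent of all TPM (top), mt-Co1 as percent of the 13-gene TPM (middle) and mt-Nd4 as percent of the 13-gene TPM (bottom). The mt-Co1 share lies at or below 4.57% in cells 1 to 54 and at or below 2.44% in cells 159 to 190, while mt-Nd4 is on average higher in those stretches.

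Cells 191 to 207 were mixed along the number order. In cells 192 to 200 mt-Co1 held 4.06 to 14.4% of the pool, and in cells 201 to 207 it held 0.570 to 2.03%. mt-Rnr2 ran in parallel, at 8363 to 44972 TPM in cells 192 to 200 and 388 to 2505 TPM in cells 201 to 207, and mt-Ts1 stood at 884 to 5245 TPM and at 0 to 7.61 TPM. mt-Co3 overlapped between the same cells, at 9418 to 70089 TPM and 14718 to 54559 TPM. In cell 191 the mt-Co1 share of 1.34% and mt-Ts1 at 0 lay within the ranges of cells 201 to 207, mt-Rnr2 at 3198 TPM lay between the ranges, and the protein genes took 33.9% of all TPM, the highest of all cells. The place of this change within the stretch was read from these values.

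Both rRNA genes, which encode the RNA of the small (mt-Rnr1) and large (mt-Rnr2) mitochondrial ribosomal subunits, followed the stretches in the manner of mt-Co1. mt-Rnr2 had 2714 ± 2159, 8271 ± 4649, 15560 ± 8035, 1787 ± 1802 and 12019 ± 13594 TPM in the stretches in order, and mt-Rnr1 had 445 ± 710, 1619 ± 1062, 1907 ± 986, 315 ± 305 and 1783 ± 2317 TPM. By age mt-Rnr2 had 6096 ± 4723 TPM among the young and 8300 ± 10096 among the old (log2 difference 0.45), and mt-Rnr1 1160 ± 1100 and 1138 ± 1474 TPM (-0.027). The medians went the other way for mt-Rnr2, at 4960 TPM among the young and 3363 among the old, and 887 and 572 TPM for mt-Rnr1.

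Complex I, which passes electrons from NADH to ubiquinone, takes 7 of the 13 proteins. Of these, mt-Nd4 and mt-Nd2, both membrane subunits of its proton-pumping arm, ran against mt-Co1 in cells 1 to 190. mt-Nd4 had 6586 ± 5337 TPM in cells 1 to 54 and 3879 ± 2246 TPM in cells 55 to 138, and 4748 ± 2725, 11508 ± 8538 and 11718 ± 13336 TPM in the 3 old stretches. Its pool share was 7.86, 3.78, 4.11, 8.54 and 7.70% in the same order. Cell 191 alone gave 27.3% of the mt-Nd4 total of its stretch, whose median was 7977 TPM. mt-Nd2 held 3.79, 1.98, 2.07, 2.67 and 2.34% of the pool.

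mt-Nd6 and mt-Nd4l went with mt-Co1, to a lesser degree. mt-Nd6, the minus-strand protein gene, had means of 893 and 2064 TPM in the young and 1524, 975 and 2029 TPM in the old stretches. mt-Nd5, the longest gene of the genome at 1824 bases, had 1202 and 2051 TPM in the young and 1973, 1569 and 2275 TPM in the old stretches. mt-Nd4l had 308 and 588, then 892, 593 and 672 TPM. It overlaps mt-Nd4 with no tRNA gene between them, so their unlike values need not stand for separate RNAs. The remaining members, mt-Nd1 (8825 and 8140, then 9012, 10857 and 12436 TPM) and mt-Nd3 (1745 and 2008, then 2225, 2365 and 2254 TPM), had stretch means closer to each other.

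mt-Cytb, the only mitochondrial protein of complex III, and the ATP synthase subunits mt-Atp6 and mt-Atp8 showed the same evenness. mt-Cytb held 12.3 to 14.3% of the pool in the 5 stretches, mt-Atp6 6.59 to 7.76% and mt-Atp8 8.98 to 11.5%. In TPM, mt-Atp8 had 9733 ± 6789 in young and 13271 ± 8066 in old cells and mt-Atp6 6889 ± 4087 and 9146 ± 5341. The spread over cells, as the SD divided by the mean, was smallest among the protein and rRNA genes for mt-Co2, mt-Cytb and mt-Co3 in young cells (0.549, 0.549 and 0.551) and for mt-Co3, mt-Cytb and mt-Atp6 in old cells (0.576, 0.584 and 0.584).

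Summed tRNA values differed by the annotated strand of the gene. The 8 minus-strand tRNA genes summed to means of 183 and 2727 TPM in the young and 2535, 14.2 and 1691 TPM in the old stretches. The 14 plus-strand tRNA genes summed to 393 and 214 TPM in the young and 179, 406 and 393 TPM in the old stretches. This sum was higher where the minus-strand sum was low, in cells 1 to 54 and 159 to 190, but in cells 191 to 207 both were high. Most of it was 1 gene, mt-Tl1, at means of 322 and 143 TPM in the young and 143, 319 and 321 TPM in the old stretches. The minus-strand genes made up 31.8, 92.7, 93.4, 3.38 and 81.1% of all mitochondrial tRNA TPM in the stretches in order.

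mt-Ts1 held most of the summed minus-strand tRNA TPM at both ages, but not in cells 159 to 190, where it had 3.15 of 14.2 TPM, nor in cells 201 to 207, where it had 1.09 of 9.53 TPM. It was detected in 15 of 54 cells in the first young stretch (27.8%, exact 95% interval 16.5 to 41.6%) at a mean of 114 TPM, and in 84 of 84 cells in the second (100%, from 95.7%) at 1807 TPM. In the old stretches it was detected in 20 of 20 cells (100%, from 83.2%), 4 of 32 (12.5%, 3.51 to 29.0%) and 10 of 17 (58.8%, 32.9 to 81.6%), at means of 2079, 3.15 and 1307 TPM. The intervals cover counting error over cells only. In the first young stretch 1 cell, number 48, held 34.7% of the total at 2144 TPM, so the stretch was not uniformly low.

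The next minus-strand tRNAs were likewise lowest in cells 1 to 54 and 159 to 190. mt-Te had means of 49.0 and 726 TPM in the young and 325, 0.600 and 266 TPM in the old stretches, and in cells 159 to 190 it was detected in 1 of 32 cells. mt-Tq had 4.98 and 84.3, then 29.7, 1.14 and 39.4 TPM, mt-Tp 1.83 and 57.1, then 34.0, 2.57 and 28.7 TPM, and mt-Tc 1.28 and 25.6, then 7.30, 1.34 and 8.58 TPM. mt-Ta, the alanine tRNA, was highest in an old stretch, with 6.46 and 23.6 TPM in the young and 52.7, 3.83 and 34.2 TPM in the old. mt-Tn and mt-Ty stayed below 7 TPM in every stretch, and mt-Ty was not detected in cells 159 to 190 (0 of 32, which allows a share of up to 9.38% of cells).

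On the plus strand only mt-Tl1 was abundant. This leucine tRNA lies directly after mt-Rnr2 and had 322 ± 460 and 143 ± 146 TPM in the young and 143 ± 158, 319 ± 362 and 321 ± 306 TPM in the old stretches. Its neighbour mt-Rnr2 thus had its low stretches where mt-Tl1 was high, apart from cells 191 to 207, where both were high. Across the 207 cells, however, the Spearman correlation of mt-Rnr2 with mt-Tl1 was 0.011. The other 13 plus-strand tRNAs were detected in 7 to 55 of the 207 cells, and several means rested on 1 cell: 1 young cell held 64.1% of the young total of mt-Ti and 1 old cell 100% of the old total of mt-Tf.

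Stretches were also compared within each age, in comparisons that share no cells. Of the 33 members measured in both, 13 had opposite signs, beside 4445 of all 10376 genes measured in both. In both the young comparison (55 to 138 over 1 to 54) and the old one (139 to 158 over 159 to 190), 12 of the 33 members measured (mean TPM of 1 or above in a set compared) were at least 1.5-fold higher: mt-Rnr1, mt-Rnr2, mt-Co1, mt-Nd4l, mt-Nd6, mt-Tt, mt-Tq, mt-Ta, mt-Tc, mt-Ts1, mt-Te and mt-Tp. Over all 10376 genes measured in both, 14.1% were that much higher in both. Another 5 members were at least 1.5-fold lower in both, mt-Nd2, mt-Nd4, mt-Tl1, mt-Td and mt-Tg, against 9.94% of all genes. By annotated strand, 7 of 8 measured minus-strand genes were higher in both and 0 lower, the exception being mt-Tn. Of 25 plus-strand genes, 5 were higher and 5 lower. The boundaries used mitochondrial sums, so the counts describe how each gene shared in the differences and support nothing about their origin.

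**Figure D3:**
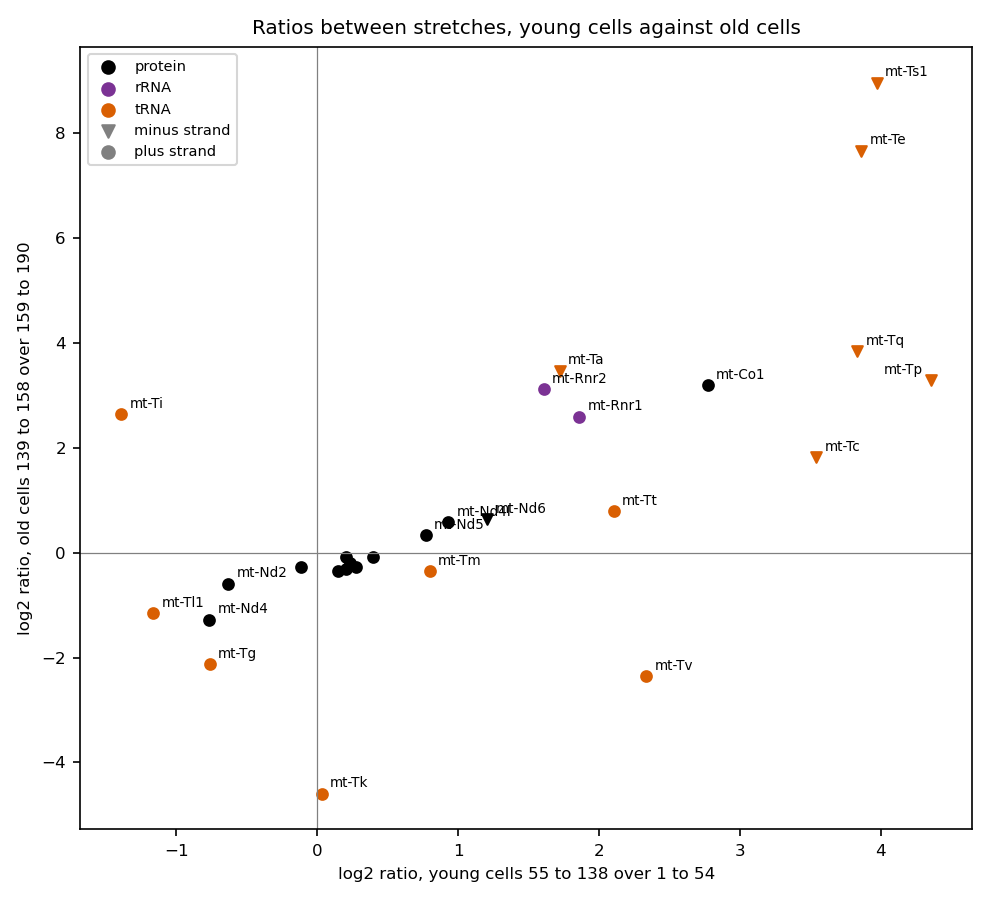
Log2 ratio of mean TPM between stretches for the 28 genes with a mean of 10 TPM or above in at least 1 of the 4 stretches, young cells on the horizontal and old cells on the vertical axis, with genes under 1.5-fold on both axes left without a name. mt-Ts1, mt-Te, mt-Tq, mt-Tp, mt-Co1 and both rRNA genes lie at the upper right, and mt-Nd4, mt-Nd2, mt-Tl1 and mt-Tg at the lower left.

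Within each age, 17 of 36 measured members were 1.5-fold or more higher and 8 lower in young cells 55 to 138 than in cells 1 to 54, where 29.3% of all 12082 genes were higher and 26.7% lower. In the old comparison 14 of 34 members were higher and 9 lower, where 40.6% of 11418 genes were higher and 29.7% lower. The folds for mt-Co1 were 6.83 in the young and 9.15 in the old comparison, those for mt-Rnr2 3.05 and 8.70, and those for mt-Rnr1 3.63 and 6.04. mt-Nd4 stood at 0.589 and 0.413 of the level in the other stretch. The 12 protein genes other than mt-Co1 had medians of 0.22 and -0.23 (log2), and 6 of them had opposite signs in the comparisons of the young and of the old.

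Between the ages, with all cells pooled, 4 of the 37 members were at least 1.5-fold higher in old cells and 7 at least 1.5-fold lower, where 16.8% of the 12155 genes measured were higher and 26.4% lower (median of all -0.10). The members higher were mt-Nd4 (log2 difference 0.96), mt-Tm (1.52), mt-Tr (1.46) and mt-Tn (0.63), and 1 old cell held 81.7% of the old total of mt-Tr. The members lower were all tRNAs: mt-Tc (-1.55), mt-Te (-1.52), mt-Tq (-1.45), mt-Ti (-1.35), mt-Tt (-1.13), mt-Ty (-0.999) and mt-Tp (-0.93). mt-Te had 461 ± 470 TPM among the young and 160 ± 253 among the old. With cells 55 to 138 left out, mt-Te (1.69), mt-Tq (1.73), mt-Tc (1.36), mt-Tp (2.76) and mt-Tt (0.46) were instead higher in old cells.

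Of the protein genes 11 of 13 were above 0, as were 5340 of the 12155 genes measured, with a range from -0.20 for mt-Nd6 to 0.96 for mt-Nd4. The next highest were mt-Cytb (0.55), mt-Nd4l (0.55) and mt-Co3 (0.46), and the next lowest mt-Co1 (-0.082) and mt-Nd5 (0.11). mt-Nd4, mt-Cytb and mt-Co3 are the 3 protein genes whose annotated length is not a multiple of 3 (1378, 1144 and 784 bases), that is, whose stop codon is completed by the poly(A) tail. They did not hold the top ranks alone, as mt-Nd4l, of 297 bases, stood above mt-Co3 and mt-Atp8 (0.45) just below it. In old cells 139 to 158 over young cells 55 to 138, mt-Co3 was at 0.15 and mt-Nd4l at 0.60. This grouping was noticed after the values were seen and was not tested.

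**Figure D4:**
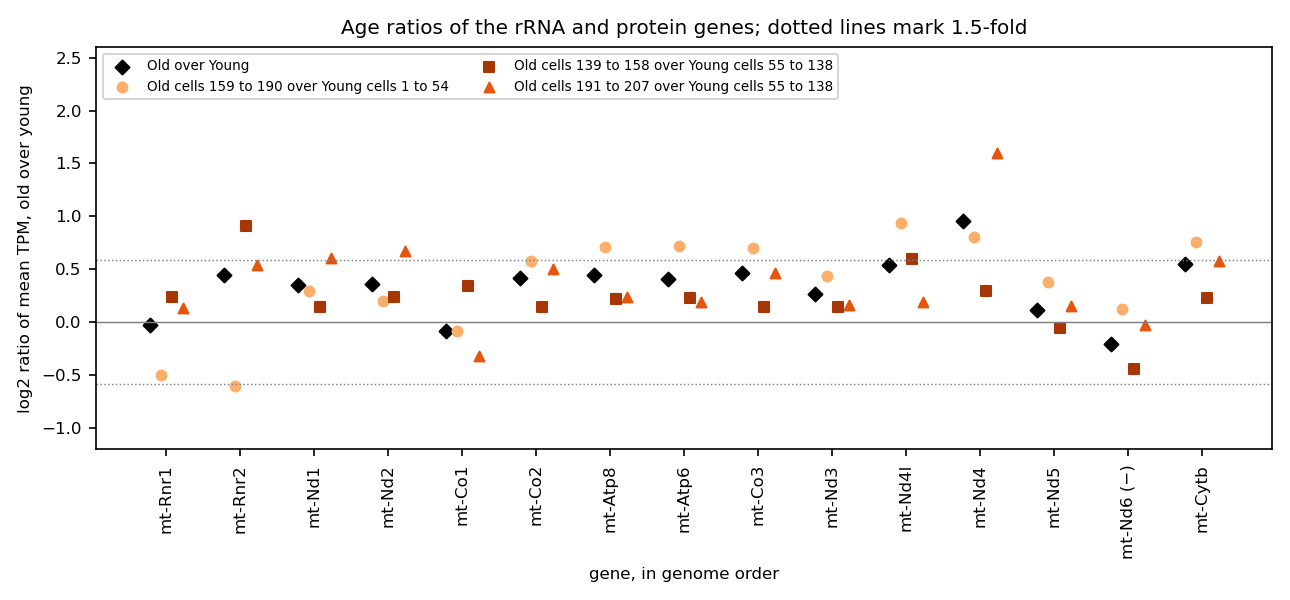
Log2 ratio of mean TPM, old over young, for the rRNA and protein genes in genome order, with all cells pooled (black) and for pairs of stretches; dotted lines mark 1.5-fold. mt-Nd4 is above 0 in all 4 comparisons, as are most protein genes, while mt-Rnr2 lies at -0.60 in 1 of them and at 0.91 in another.

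Age ratios within pairs of stretches differed from gene to gene. For old cells 159 to 190 over young cells 1 to 54, 6 of 13 protein genes were at least 1.5-fold higher and 0 lower (22.4% and 38.5% of all 11382 genes), with mt-Nd4l at 0.94, mt-Nd4 at 0.81 and mt-Cytb at 0.76 (log2), whereas mt-Rnr2 was at -0.60 and mt-Rnr1 at -0.50. For old cells 139 to 158 over young cells 55 to 138, 1 protein gene was higher, mt-Nd4l at 0.60, and 0 were lower (26.0% and 32.6% of 12069 genes), while mt-Rnr2 was at 0.91 and mt-Nd6 at -0.44. For old cells 191 to 207 over the same young cells, whose mean mt-Co1 shares were unlike (4.95% and 9.17%), 3 protein genes were higher and 0 lower (20.3% and 45.1% of 11887 genes), led by mt-Nd4 at 1.59. The last pair of comparisons share their young cells. mt-Nd4 was above 0 in each pair of stretches, at 0.29 in cells 139 to 158 over 55 to 138. With all cells pooled it was above 0 under all 15 alternatives tried, at 0.54 to 1.31, but its difference was under 1.5-fold in the lowest of these. This sign was not particular to mt-Nd4, since mt-Atp6, mt-Atp8, mt-Co2, mt-Co3, mt-Cytb, mt-Nd1, mt-Nd2 and mt-Nd4l were also above 0 in each pair and under all 15 alternatives.

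Across the 207 cells the protein genes mostly rose and fell together, given here as Spearman correlations of TPM between genes of the same cells. The median over the 78 pairs of protein genes was 0.60. The tightest group was mt-Co2, mt-Atp8, mt-Atp6, mt-Co3 and mt-Cytb, with a median of 0.88 over its 10 pairs (0.83 to 0.97). All genes of a cell share its library and its TPM total. After division by the 13-gene sum the median over the 78 pairs was -0.076, but division by a shared sum can itself pull such values below 0, so this does not say how much of the 0.60 lies in the total.

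Over all cells pooled, mt-Co1 stood outside that group. It correlated at 0.45 with mt-Co2, 0.44 with mt-Co3 and -0.014 with mt-Nd4, but at 0.88 with mt-Ts1, 0.84 with mt-Rnr2, 0.80 with mt-Rnr1 and 0.72 with mt-Nd6. Within stretches, mt-Co1 and mt-Ts1 correlated at 0.18 in cells 1 to 54 and -0.079 in cells 159 to 190, where mt-Ts1 was mostly undetected, and at 0.73, 0.75 and 0.92 in cells 55 to 138, 139 to 158 and 191 to 207. With the 2 rRNA genes mt-Co1 had median correlations of 0.31 and 0.67 in the young stretches and 0.74, 0.42 and 0.90 in the old, in order of cell number. With the 12 other protein genes its medians within stretches were 0.44 and 0.59 in the young and 0.86, 0.57 and 0.62 in the old. The lowest single pair was at 0.093, in cells 191 to 207, so every pair was positive within every stretch. mt-Co1 also correlated at 0.36 with detected genes and 0.72 with Malat1, and mt-Nd4 at -0.49 and -0.28. mt-Te, which touches neither mt-Co1 nor mt-Ts1, correlated over all cells at 0.80 with mt-Ts1 and at 0.13 with its plus-strand neighbour mt-Cytb. With mt-Nd6, which it adjoins on the same strand, mt-Te correlated at 0.69. With the plus-strand genes mt-Co1, mt-Rnr1 and mt-Rnr2 it correlated at 0.79, 0.70 and 0.67. mt-Te, mt-Ts1, mt-Co1, mt-Nd6 and both rRNA genes had their lowest stretch means in cells 1 to 54 and 159 to 190. These correlations, the 0.80 among them, thus include the differences between stretches.

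**Figure D5:**
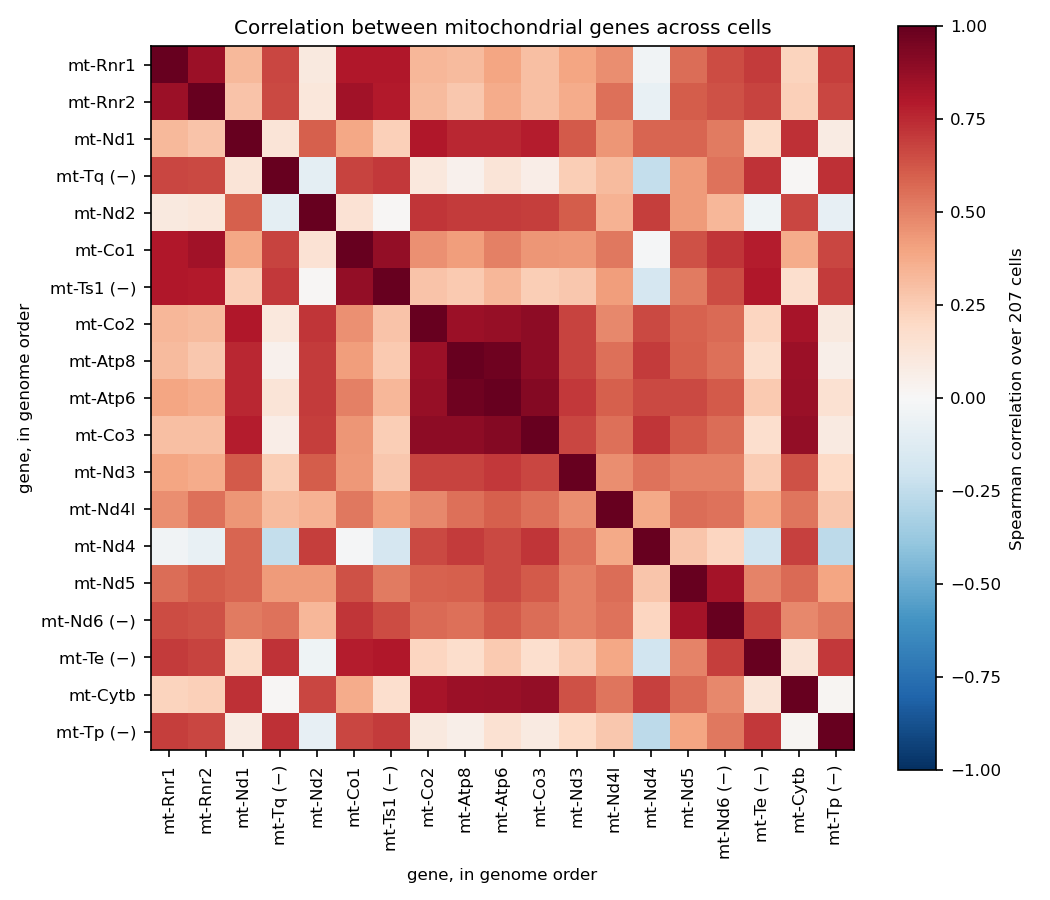
Spearman correlation of TPM across the 207 cells between the protein and rRNA genes and 4 minus-strand tRNAs, in genome order. mt-Co2, mt-Atp8, mt-Atp6, mt-Co3 and mt-Cytb form a block at 0.83 to 0.97, while mt-Co1 is closest to mt-Ts1 (0.88) and mt-Rnr2 (0.84).

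Neighbours that share bases behaved differently from pair to pair. No tRNA gene lies between mt-Atp8 and mt-Atp6 or between mt-Nd4l and mt-Nd4. The rows of such a pair need not stand for separate RNAs, and how reads were split between them is not given. mt-Atp8 and mt-Atp6, which share the 43 bases printed above, correlated at 0.97 across all cells, and the median ratio of mt-Atp8 to mt-Atp6 was 1.43 and 1.34 in the young and 1.32, 1.56 and 1.38 in the old stretches. mt-Nd4l and mt-Nd4, which share 7 bases, correlated at 0.38, and the median ratio of mt-Nd4 to mt-Nd4l was 24.6 and 6.90 in the young and 5.97, 24.0 and 11.9 in the old stretches. Within stretches this pair correlated at 0.75 and 0.79 in cells 55 to 138 and 139 to 158, and at 0.38, 0.34 and 0.18 in cells 1 to 54, 159 to 190 and 191 to 207. mt-Nd5 and mt-Nd6, whose ends meet on opposite strands, correlated at 0.83, with a median ratio of mt-Nd6 to mt-Nd5 of 0.646 and 1.03 in the young and 0.713, 0.679 and 0.824 in the old stretches.

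Several protein genes have near-identical copies in the nuclear genome, and how the counting split their reads is not given in the sources used here. A comparison with the GENCODE M21 transcripts found 7 pseudogenes on chromosome 1 (GRCm38, 24611535 to 24616197) that match mt-Atp6, mt-Co1, mt-Co2, mt-Co3, mt-Nd3, mt-Nd4 and mt-Nd4l at 99.7% identity or above over 200 bases or more. The copy of mt-Co1 covers its last 483 bases and that of mt-Nd4 its first 876. Only Gm10925 (the mt-Atp6 copy) and Gm10222 (the mt-Nd4l copy) are in the table. Gm10222 had 587 ± 543 TPM among the young and 977 ± 1113 among the old, more than mt-Nd4l itself at 479 ± 406 and 699 ± 717 TPM, and it correlated at 0.86 with mt-Nd4l and 0.38 with mt-Nd4. Gm10925 correlated at 0.97 with mt-Atp6 and stood above it, at means of 13369 TPM among the young and 17718 among the old, with a median ratio of 1.95 over all cells, and the printed levels and pool shares of mt-Atp6 leave out these values. The levels of these 7 members are therefore less certain than those of mt-Nd1, mt-Nd2, mt-Nd5, mt-Nd6 and mt-Cytb, whose closest copies found matched at 96.7% or below, or for which none was found. mt-Atp8 is in neither list: Gm10925 matched it at 100%, but only over the last 43 of its 204 bases, and correlated with it at 0.99.

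The nuclear genes that transcribe, cut and stabilise mitochondrial RNA were low in these libraries. Of 48 listed genes, 47 were measured, with a median age difference of 0.12 (log2), 17 at least 1.5-fold higher and 13 lower in old cells. That is 36.2% and 27.7%, beside 16.8% and 26.4% of all genes. The 17 transcription and replication genes had a median of 0.13 (6 higher, 4 lower), the 21 processing and modification genes -0.37 (7 and 8) and the 9 stability and decay genes 0.29 (4 and 1). Most were seen in few cells, so single cells weigh heavily.

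Among them Polrmt, the mitochondrial RNA polymerase, had 3.15 ± 16.5 TPM among the young and 0.2499 ± 1.11 among the old, and Tfam, which packages the DNA and starts transcription, 6.36 ± 16.9 and 11.1 ± 43.1 TPM. Lrpprc, which protects the mRNAs, had 10.7 ± 30.3 and 7.47 ± 29.7 TPM, and Mtpap, which adds their poly(A) tails, 4.90 ± 14.9 and 2.26 ± 6.32 TPM. The highest age ratios at 10 TPM or above were those of Tfb1m, which methylates the small rRNA (1.61), Trmt10c, a subunit of mitochondrial RNase P (1.09), and Cdk5rap1, a tRNA-modifying enzyme (0.99). The lowest were those of the DNA exonuclease Mgme1 (-2.08), of Hsd17b10, another RNase P subunit (-1.22), and of the RNA-binding protein Grsf1 (-1.08). Each of these means was smaller than its SD between cells.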

How the data were processed

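Expression was deposited by the authors as TPM in 1 table, whose 207 columns are the cells; 0 columns were left unused. Per the submitters' processing notes, CASAVA 1.8.2 and FastQC were used with build GRCm38 (mm10), while aligner, counting program, annotation and strand handling were not given in the sources used here. All cells were kept, doublets were not sought, and identical columns were looked for and numbered 0. Members were found through the NCBI Gene numbers of a RefSeq table of GRCm38, and sequences came from GENCODE M21 transcripts, with anticodons found as the middle of a 7-base loop closed by at least 4 of 5 stem pairs. Copies were sought with BLAST 2.17.0 (85% identity, 40 bases).

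Differences are log2((mean TPM + 1)/(mean TPM + 1)) over genes with a mean of 1 TPM or above in either set, and sizes of 1.5-fold or more were counted without a test. Intervals of shares of cells are exact Clopper-Pearson. Calculations used Python 3.11.15, numpy 2.4.6, pandas 2.3.3 and scipy 1.17.1, and the ratio code was tested on simulated data. The members and lists were chosen with earlier results of these data known. Named were all protein, rRNA and minus-strand tRNA genes, the 6 most abundant tRNAs, tRNAs with the 2 highest and 2 lowest age ratios at 10 TPM or above, 3 pathway genes each way at 10 TPM or above with 4 fixed by name, and the 5 genes most and least like the summed protein genes. Other tRNAs are named where a count is spelled out. Alternatives covered the pseudocount, medians, rescaling without insulin, low-value filters, the size threshold and leaving out each stretch.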

Additional observations from a re-analysis of the deposited data

How the results depend on the processing

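A value was counted as reversed where a log2 difference of 1.5-fold or more, a pool share difference or a correlation changed sign, and as moved where it shifted by more than the SD between stretches or, for counts, by over 1.5 times. By this rule 117 alternatives of the values that answer a comparison did neither, 16 moved and 4 reversed. The SD between stretches is large where the stretches differ widely, so a value that did neither need not be stable. Smaller differences also changed sign: the log2 ratio of summed rRNA TPM, 0.38, ranged from -0.57 to 1.58 and was below 0 under 4 of 15 alternatives, that of summed tRNA TPM was above 0 under 2, mt-Co1, mt-Rnr1, mt-Rnr2 and mt-Nd5 changed sign under 3 each, mt-Nd6 and mt-Ts1 (-9.87 to 3.01) under 2 and mt-Nd3 under 1, and other tRNA genes did so too. Without young cells 55 to 138 the median log2 ratio of the 13 protein genes went from 0.41 to 0.63 and the log2 ratio of summed tRNA TPM from -0.43 to 1.37. The members higher and lower in old cells went from 4 and 7 to 19 and 4. The mt-Co1 share difference went from -1.59 to 3.08 percentage points and that of mt-Nd4 from 1.67 to -0.81. Also reversed were mt-Tq (1.73), mt-Tn (-0.093), mt-Tc (1.36), mt-Te (1.69), mt-Tt (0.46) and mt-Tp (2.76). Without old cells 159 to 190 there were 11 higher and 11 lower members, mt-Co1 was at 1.54 points and mt-Tr at -0.44. A pseudocount of 10, mean log values, medians, members of 10 TPM or above only and a 2-fold limit each left 2 members higher. The protein gene share in old cells (12.9%) was 11.1% as a median. Without Ins1 and Ins2 in the total the shares were 21.2% in young and 26.9% in old cells, and with Gm10925 added 10.9% and 14.7%. The median correlation of 0.60 became -0.076 after division by the 13-gene sum, which can itself pull correlations below 0. The cause was not tested, beyond the fewer genes or cells each alternative holds. Among single genes 36 alternatives moved, 7 reversed and 500 did neither. Leaving out cells 201 to 207 was added after seeing the data. No paired analysis was possible because the replicate numbers follow accession order only and name no animal. TPM holds no read depth, so a tRNA at 0 may be under detection.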

Other observations

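Outside the mitochondrial genome, the genes whose levels followed the summed TPM of the 13 protein genes were few. Over the 4077 other genes with a mean of 10 TPM or above, the highest Spearman correlations across the 207 cells were those of the nuclear copies Gm10925 (0.95) and Gm10222 (0.58), and then fell to 0.24 for Rnu2-10, 0.20 for A330076H08Rik and 0.20 for Gm3379. The lowest were those of Gm4366 (-0.36), Iapp, which encodes amylin (-0.36), Pdia6, a folding enzyme of the endoplasmic reticulum (-0.35), Tmed3, a cargo receptor of the early secretory pathway (-0.35), and Dnajb9, a chaperone cofactor of the endoplasmic reticulum (-0.34). TPM sums to a fixed total in each cell, so a higher mitochondrial share lowers the TPM of other genes by construction. All cells share this, and no test was made.

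Single cells spanned a wide range of mitochondrial mRNA. The 13 protein genes took 1.17% of all TPM in young cell 129, the lowest of all, and 33.9% in old cell 191, the highest. Cell 129 had 5095 detected genes and cell 191 had 2498, and their mt-Nd4 shares of the pool were 8.95% and 16.1%.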
